A study of Mus musculus with 71 samples.

Results

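RING1B was mapped by CUT&RUN in embryoid bodies at day 10, grown from mouse J1 embryonic stem cells (ESC) that carried CBX7-CaPS or wild-type CBX7 (WT). The whole table of this experiment is described, 6547 peaks out of 6547, from 1 CaPS library and 1 WT library among the 71 samples of the series. The rule that chose them used no measured value, only the table and its 2 columns. Both libraries belong to experiment 2, and both share the J1 background, the antibody target and the culture course. From the series title, CaPS stands for a domain of the Polycomb proteins of committed cells that was placed into PRC1 of pluripotent cells. The labels do not say how many clones stand behind each genotype. The growth text given with these libraries describes suspension aggregates without LIF followed by retinoic acid, a course to neural progenitors, and names no day 10, so how the embryoid bodies were grown is uncertain. Which cell types the embryoid bodies held was not measured, since RING1B signal marks Polycomb target genes and not expressed ones.

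Polycomb repressive complex 1 (PRC1) keeps developmental regulators silent, and RING1B is the subunit that places ubiquitin on histone H2A. CBX7 is the chromodomain subunit that predominates in ESC and binds H3K27me3, the histone mark laid down by PRC2. As ESC differentiate, PRC1 leaves the regulators of the chosen lineage and stays on those of other lineages, and embryoid bodies, which form derivatives of all germ layers, hold cells that differ in this. CUT&RUN releases the DNA around the bound antibody with a tethered nuclease, so its background is low and a weak peak can rest on a few tags. A tag is 1 mapped fragment, and a value below is the number of tags in the peak per 10 M tags of the library.

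The promoters of 5 genes on which the results turn are printed first, as the 250 bases before the transcription start, from RefSeq on GRCm38.p6 and read 5′ to 3′ on the gene's strand, with each CG dinucleotide in capitals. They show how unlike in CG content the RING1B-bound starts were. Pax6, a regulator of eye and forebrain, stood among the strongest peaks with equal signal in both libraries, Atoh1, a hindbrain and inner ear regulator, was lower in CaPS, Sox2, a neural and pluripotency factor, was higher in CaPS, and Lncenc1, a non-coding RNA of naive ESC, and Them4, a thioesterase gene, were among the 10 highest in CaPS.
Pax6 (chr2:105668646-105668895, + strand): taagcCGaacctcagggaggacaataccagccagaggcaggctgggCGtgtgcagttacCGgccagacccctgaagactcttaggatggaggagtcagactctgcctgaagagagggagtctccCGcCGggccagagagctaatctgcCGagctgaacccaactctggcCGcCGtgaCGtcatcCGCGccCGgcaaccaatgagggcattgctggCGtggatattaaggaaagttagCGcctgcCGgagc
Atoh1 (chr6:64728875-64729124, + strand): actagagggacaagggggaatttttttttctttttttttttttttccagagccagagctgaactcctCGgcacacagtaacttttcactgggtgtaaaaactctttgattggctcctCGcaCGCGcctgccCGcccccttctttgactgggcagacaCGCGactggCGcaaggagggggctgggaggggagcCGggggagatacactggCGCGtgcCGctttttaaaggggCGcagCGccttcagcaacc
Sox2 (chr3:34649745-34649994, + strand): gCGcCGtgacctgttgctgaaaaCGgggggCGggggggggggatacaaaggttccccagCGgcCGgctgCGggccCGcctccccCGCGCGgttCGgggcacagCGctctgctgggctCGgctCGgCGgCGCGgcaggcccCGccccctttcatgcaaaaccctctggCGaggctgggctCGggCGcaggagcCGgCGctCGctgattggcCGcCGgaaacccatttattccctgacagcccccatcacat
Lncenc1 (chr13:97434720-97434969, + strand): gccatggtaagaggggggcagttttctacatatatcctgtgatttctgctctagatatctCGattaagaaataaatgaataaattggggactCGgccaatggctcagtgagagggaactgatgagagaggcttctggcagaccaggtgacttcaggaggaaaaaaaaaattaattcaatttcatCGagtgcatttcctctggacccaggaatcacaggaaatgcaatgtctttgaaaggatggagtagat
Them4 (chr3:94309882-94310131, + strand): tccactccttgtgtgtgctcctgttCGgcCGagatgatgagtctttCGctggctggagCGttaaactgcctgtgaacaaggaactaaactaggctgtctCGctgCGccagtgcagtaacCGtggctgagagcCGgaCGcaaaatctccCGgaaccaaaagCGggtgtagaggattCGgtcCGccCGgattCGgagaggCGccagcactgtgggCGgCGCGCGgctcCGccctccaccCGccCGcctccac
The stretches held 15 CG in Pax6, 14 in Atoh1, 27 in Sox2, 3 in Lncenc1 and 23 in Them4. Of all 32851 RefSeq promoters of that length, 27.3% held at least 15 CG, 8.56% at least 27 and 71% at least 3. Lncenc1 was thus poor in CG and Sox2 rich. The genes shown were chosen from those whose start lay inside a RING1B peak. Over the 2780 promoters whose start lay in a peak the median was 16 CG, against 5 CG over the 30071 whose start lay outside. The directions of change were not ordered by CG content. Among peaks of at least 50 tags, 92 promoters in a peak lower in CaPS had a median of 15.5 CG and 160 promoters in a peak higher in CaPS a median of 17 CG, while at least 10 CG were held by 88% of the promoters in lower peaks and 76.2% of those in higher peaks, where a direction was taken only if the counting interval of the ratio excluded 1. The letters CG read the same on both strands, and their number is a description of the window.

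The header totals were equal, and whether they were made so by scaling or by sampling tags is not known. The CaPS library held 12.301 M tags, of which 2.04% lay in the peaks (exact 95% interval 2.03 to 2.05%), and the WT library held 12.301 M tags, of which 1.96% lay in the peaks (1.95 to 1.96%). The median peak had 13.41 tags per 10 M in CaPS and 12.19 in WT, which is 16.5 tags against 15 tags. The highest peak had 3044.87 in CaPS and 3177.74 in WT. In CaPS 7 peaks were at 0 and in WT 10 were, which allows up to 3 tags or 2.44 tags per 10 M. With 1 library per genotype there is no replicate check of any difference and no test was made. Intervals cover counting error only, since CUT&RUN reads without molecular identifiers are not independent molecules and the spread between embryoid body cultures was not measured.

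RING1B signal over the peaks was close to equal in CaPS and WT embryoid bodies. The summed signal of all peaks was 1.04 times as high in CaPS, and the median log2 ratio of CaPS over WT was 0.15, a fold of 1.11, after 1 was added to both values. The ratio was above 0 at 3882 peaks and below 0 at 2556. Past a 2-fold difference, 474 peaks were lower in CaPS, or 7.24% of those measured, and 858 were higher, or 13.1%. Most of these were weak peaks. Of the 474 lower ones 233 had a counting interval that excluded equality, and of the 858 higher ones 434 did. Without regard to size, the interval lay below 1 at 323 peaks (4.93%) and above 1 at 588 (8.98%).

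Strong peaks scattered least. Peaks were split into 10 equal groups by mean signal. In the weakest group, with a mean signal of 4.07 to 6.50 tags per 10 M, the median signal was 8.13 in CaPS and 3.66 in WT, and the median log2 ratio was 1.09. Of its 655 peaks 248 were lower in CaPS past 2-fold and 341 were higher, and the quartiles of the log2 ratio were -1.47 and 1.65. The peak list is merged over libraries, so a peak this weak has to be high in at least 1 of them, and the ratios of this group are not read as a difference between genotypes. In the strongest group the median signal was 90.64 in CaPS and 90.64 in WT, the median log2 ratio was -0.01, 1 of 655 peaks was lower past 2-fold and 0 were higher. That group held 52.8% of the CaPS tags in peaks and 55.8% of the WT tags in peaks. Among the 2186 peaks with at least 50 tags over both libraries, the median log2 ratio was 0.06, 12 peaks were lower in CaPS past 2-fold and 28 were higher, and in all of these the counting interval excluded 1.

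**Figure D1:**
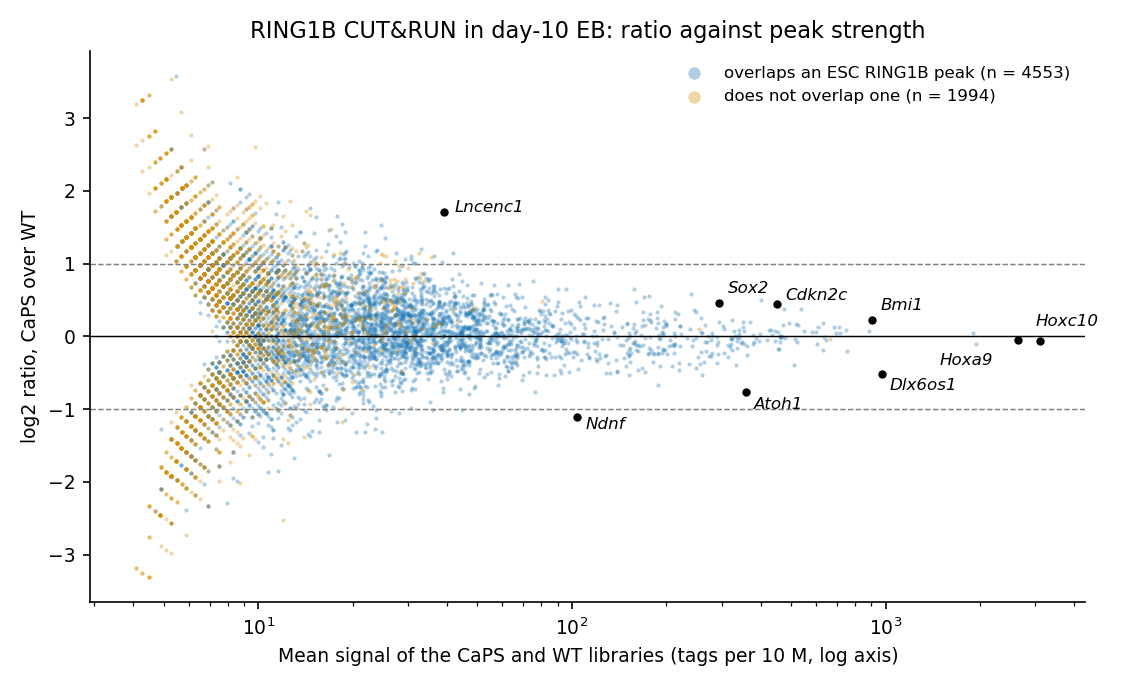
log2 ratio of RING1B signal, CaPS over WT (1 added to both values), against the mean signal of the CaPS and WT libraries in tags per 10 M on a log axis. Each point is 1 of 6547 peaks, coloured by overlap with an ESC RING1B CUT&RUN peak, the dashed lines mark 2-fold, and the named peaks are black. Weak peaks fan out to both sides and more lie above 0 than below, while strong peaks lie near 0, with Dlx6os1, Atoh1 and Ndnf among those farthest below and Cdkn2c and Sox2 among those above.

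Broad RING1B peaks were balanced between the genotypes, with single members that differed in both directions. The 117 peaks wider than 10 kb had a median signal of 362.16 tags per 10 M in CaPS and 359.72 in WT, a median log2 ratio of -0.00, and no member past 2-fold. The counting interval lay below 1 at 19 of them (16.2%) and above 1 at 16 (13.7%), shares that narrow intervals at high counts favour, and the Dlx6os1 peak described below is one of the 19. They held 27.1% of the CaPS tags in peaks and 28.4% of the WT tags in peaks, and 94% of them overlapped an H3K27me3 CUT&RUN peak of ESC. The 233 peaks of 4 to 10 kb had a median log2 ratio of -0.05. The 2583 peaks of 500 bases, the narrowest width in the table, had a median of 8.94 in CaPS and 7.72 in WT. Their median log2 ratio was 0.38, and 22% of them overlapped an ESC H3K27me3 peak. Weak peaks have to be high in at least 1 library to enter the merged list. The median ratio of these narrow peaks is thus not read as a difference between genotypes. Per kb of peak the signal differed much less with width. Its median was 26.7 tags per 10 M per kb in CaPS and 27 in WT for peaks wider than 10 kb, and 17.9 in CaPS and 15.4 in WT for peaks of 500 bases. Broad and narrow peaks thus differed more in length than in signal per kb.

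Peaks far from a start scattered more. The 4472 peaks within 1 kb of a transcription start had a median log2 ratio of 0.16, the 1062 peaks at 1 to 3 kb had 0.07, and the 1013 peaks at 3 to 10 kb had 0.25. Past 2-fold, 17% of the peaks at 3 to 10 kb were lower in CaPS and 25.8% higher, where 4.70% and 10.6% were within 1 kb. The far peaks were also weaker, with a median of 9.76 tags per 10 M in CaPS and 8.94 in WT, against 14.23 in CaPS and 13.01 in WT within 1 kb, and the part of strength was not tested. Every peak of the table lay within 10 kb of a start. By annotation, 2418 peaks at promoters had a median log2 ratio of 0.15, 2242 in introns 0.17 and 732 between genes 0.21.

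The strongest peaks were the Hox clusters, which set position along the body axis and are the classical Polycomb targets. The peak over the HoxC cluster, annotated to Hoxc10 (chr15:102917987-103017462, mm10), had 3044.87 tags per 10 M in CaPS and 3177.74 in WT, a ratio of 0.958 with a counting interval of 0.916 to 1.00. The HoxA peak annotated to Hoxa9 (chr6:52184733-52268126) had 2598.56 in CaPS and 2701.37 in WT, a ratio of 0.962. The HoxB peak annotated to Hoxb6 (chr11:96263967-96333894) had 1871.79 in CaPS and 2017.28 in WT, a ratio of 0.928. The HoxD peak annotated to Hoxd11 (chr2:74652310-74716532) had 1932.36 in CaPS and 1879.90 in WT, a ratio of 1.03. All 4 ratios lay within 8% of equality, and in the HoxB peak alone the counting interval, 0.876 to 0.982, excluded 1. Per kb these 4 peaks had 26.8 to 31.2 tags per 10 M in CaPS and 28.8 to 32.4 in WT. One peak stands for many Hox genes here, so only 9 of the 39 listed Hox genes had a peak annotated to them.

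Among the other peaks of the strongest 10, Dlx6os1, Six3os1 and Bmi1 differed by more than counting error. The Dlx6os1 peak (chr6:6854700-6882970), which covers the antisense RNA of the Dlx5 and Dlx6 locus, genes for forebrain interneurons and the jaw, had 799.93 tags per 10 M in CaPS and 1143.79 in WT, a ratio of 0.699 (0.644 to 0.759). It was the lowest ratio among them. Six3os1, the antisense RNA beside the eye and forebrain gene Six3, had 701.16 in CaPS and 808.46 in WT, a ratio of 0.867 (0.791 to 0.951). Bmi1, which encodes a PRC1 subunit, had 979.19 in CaPS and 837.32 in WT, a ratio of 1.17 (1.08 to 1.27). Pax6 had 727.99 in CaPS and 708.47 in WT, and Lhx2, a forebrain regulator, had 769.85 in CaPS and 723.91 in WT. The interval of both covered 1.

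**Figure D2:**
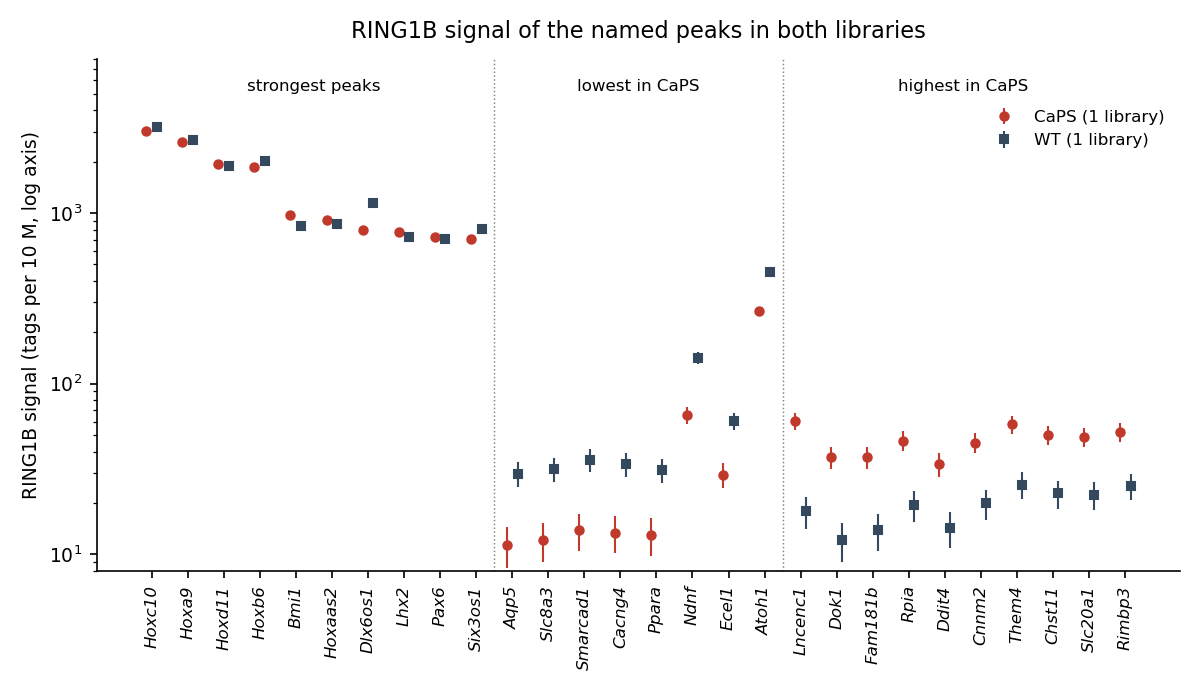
RING1B signal in tags per 10 M, on a log axis, of the strongest 10 peaks, of peaks among the lowest in CaPS and of the 10 highest in CaPS, with the CaPS library (red circles) beside the WT library (dark squares) and bars for the square root of the tag count. The strongest peaks nearly coincide apart from Dlx6os1, while the peaks with the largest ratios are mostly below 100 tags per 10 M, apart from Atoh1, and from Ndnf in WT.

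Dlx6os1 and Atoh1 were among the peaks lowest in CaPS. Ranked by the bound of the counting interval nearest to 1, among genes with at least 50 tags, the lowest 10 included Dlx6os1, Atoh1, Ndnf, Ecel1, Smarcad1, Cacng4, Ppara, Slc8a3 and Aqp5. Atoh1 (chr6:64726994-64735402) had 265.02 tags per 10 M in CaPS and 453.21 in WT, a ratio of 0.585 (0.508 to 0.671). Ndnf, which encodes a secreted neuronal factor (chr6:65670699-65673837), had 65.44 in CaPS and 141.86 in WT, a ratio of 0.461 (0.351 to 0.606). Ecel1, a neuronal endopeptidase gene, had 29.27 in CaPS and 60.16 in WT. Another 5, Smarcad1, Ppara, the calcium channel subunit gene Cacng4, the sodium-calcium exchanger gene Slc8a3 and the water channel gene Aqp5, were weak, between 11.38 and 13.82 tags per 10 M in CaPS and between 29.67 and 35.77 in WT.

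By the same ranking Lncenc1 and Dok1 were among the 10 genes highest in CaPS, and all 10 had peaks below 100 tags per 10 M. Lncenc1 (chr13:97434381-97436516) had 60.56 tags per 10 M in CaPS and 17.88 in WT, a ratio of 3.39 (2.10 to 5.76). Dok1, an adaptor of tyrosine kinase signalling (chr6:83032831-83034240), had 36.99 in CaPS and 12.19 in WT, a ratio of 3.03 (1.68 to 5.91). Them4 had 57.72 in CaPS and 25.61 in WT, a ratio of 2.25 (1.44 to 3.48). The other 7 were Fam181b, Rpia, Chst11, Cnnm2, Slc20a1, Rimbp3 and Ddit4, with 33.74 to 52.03 in CaPS and 13.82 to 25.20 in WT. They include the pentose phosphate enzyme gene Rpia, the phosphate carrier gene Slc20a1 and the stress-induced mTOR inhibitor gene Ddit4. No lineage-determining transcription factor stood among these 10. Lncenc1, Slc20a1 and Cnnm2 had no overlapping RING1B peak in ESC.

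The lists of lineage regulators had medians near 0, with differences at single genes in both directions. Each gene was represented by its strongest peak within 10 kb of its start. Over all 5956 genes with such a peak the median log2 ratio was 0.15, 378 genes (6.35%) were lower in CaPS past 2-fold and 718 (12.1%) were higher. The counting interval lay below 1 at 275 (4.62%) and above 1 at 508 (8.53%). Over the 16 lists of lineage, signalling and control genes, 267 genes were measured. Among the 209 of them with at least 50 tags the median log2 ratio was 0.00, no gene was past 2-fold in either direction, and the interval lay below 1 at 22 and above 1 at 23. Among the 58 with fewer tags, 4 were lower and 12 higher past 2-fold. Strong peaks have narrow intervals, so a gene of these lists passes that mark at a smaller difference than the typical gene does.

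Neural regulators, the list with the most measured genes, had members with an interval away from 1 in both directions. Of 51 listed genes 46 were measured, with a median log2 ratio of 0.01, and the interval lay below 1 at 9 and above 1 at 9. In the strongest of the 10 groups of all peaks the interval lay below 1 at 64 of 655 and above 1 at 56 of 655. Several of them are named here, which was decided after their values were seen. The lower genes included Atoh1, the spinal cord regulators Dbx1 and Nkx6-2, the midbrain regulators En1, Lmx1a and Lmx1b, the homeobox gene Irx5 and the proneural gene Neurog3. En1 had 212.18 tags per 10 M in CaPS and 306.88 in WT, a ratio of 0.691 (0.587 to 0.811). Lmx1b had 440.61 in CaPS and 580.43 in WT, a ratio of 0.759 (0.678 to 0.850), and Dbx1 had 184.54 in CaPS and 254.04 in WT, a ratio of 0.726 (0.609 to 0.863). The higher genes included Sox2, the forebrain regulators Emx1, Otx1 and Otx2, the midbrain gene En2, the sensory neuron gene Pou4f1, and Zic1 and Zic5. Sox2 (chr3:34646125-34657849) had 341.03 in CaPS and 248.35 in WT, a ratio of 1.37 (1.18 to 1.60). Zic1, a regulator of dorsal neural tissue, had 536.54 in CaPS and 412.56 in WT, a ratio of 1.30 (1.16 to 1.46), and Emx1 had 209.33 in CaPS and 142.67 in WT, a ratio of 1.47 (1.21 to 1.79). Otx2 had 238.60 in CaPS and 188.60 in WT. Zic5 was a weak peak with 26.83 in CaPS and 11.38 in WT.

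Regulators of the other lineages had list medians between 0.01 and 0.04. Mesoderm and heart regulators (40 of 44 measured) had a median log2 ratio of 0.03, with the interval below 1 at 4 genes and above 1 at 4. Hand2, a heart and limb regulator, had 592.23 tags per 10 M in CaPS and 673.92 in WT, a ratio of 0.879 (0.795 to 0.973), and Tbx3, of the T-box family, had 706.85 in CaPS and 682.05 in WT. Foxc1, which acts in paraxial mesoderm, had 165.03 in CaPS and 218.27 in WT, a ratio of 0.756 (0.626 to 0.909). Endoderm regulators (18 of 25) had a median of 0.02, blood and endothelium regulators (17 of 27) of 0.03, skeletal muscle regulators (8 of 13) of 0.01, and neural crest and craniofacial regulators (19 of 26) of 0.04. The interval lay below 1 at 2 endoderm, 0 blood, 0 muscle and 2 neural crest genes, and above 1 at 1 endoderm, 2 blood, 0 muscle and 3 neural crest genes. Prox1, a liver and lymphatic regulator, had 123.97 in CaPS and 179.25 in WT, a ratio of 0.692 (0.560 to 0.855). Barx1, a stomach and jaw regulator, had 287.78 in CaPS and 378.42 in WT, a ratio of 0.760 (0.660 to 0.874). Bcl11a, a regulator of lymphocytes and globin genes, had 220.71 in CaPS and 164.62 in WT, a ratio of 1.34 (1.11 to 1.62). Scaled to the same sum over the peaks, which lowers every log2 ratio by 0.06, the medians of the neural, mesoderm, endoderm, blood, muscle and neural crest lists turned negative, so none of these 6 lists has a direction.

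Signalling genes differed at few members. Ligands and antagonists of the Wnt pathway (27 of 31 measured) had a median log2 ratio of -0.01, and only at Wnt7a, with 38.21 tags per 10 M in CaPS and 19.10 in WT, did the interval exclude 1. Genes of the BMP, FGF and hedgehog pathways (28 of 34), which are ligands, antagonists and the Gli factors, had a median of -0.15, with 2 genes lower past 2-fold and 0 higher, and with the interval below 1 at 4 genes and above 1 at 1. Dhh, a hedgehog ligand of testis and nerve sheath, had 142.26 in CaPS and 192.66 in WT, a ratio of 0.738 (0.604 to 0.902), and Fgf20 had 0.81 in CaPS, which is 1 tag, and 8.54 in WT. Retinoic acid genes (13 of 18) had a median of 0.17. Of these Cyp26b1, an enzyme that breaks down retinoic acid, had 200.80 in CaPS and 138.20 in WT, a ratio of 1.45 (1.19 to 1.78), while its relative Cyp26a1 had 152.83 in CaPS and 163.40 in WT.

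Pluripotency genes, cell cycle inhibitors and the Polycomb genes themselves had these values. Pluripotency genes (15 of 21 measured) had a median log2 ratio of 0.26, with 12 above 0 and 3 below. Over all 5956 genes the median was 0.15, and 59.3% were above 0. Among the pluripotency genes the interval lay above 1 at Sox2 and Nr5a2. Nr5a2, a nuclear receptor of naive ESC, had 281.28 tags per 10 M in CaPS and 235.34 in WT, a ratio of 1.20 (1.02 to 1.40). Pou5f1 had 20.32 in CaPS and 15.04 in WT, and Nanog 30.08 in CaPS and 24.39 in WT, differences within counting error. Cyclin-dependent kinase inhibitors (5 of 7) had a median of -0.20, with 3 below 0 and 2 above. Of these Cdkn2c, an inhibitor of cell cycle entry, had 517.84 in CaPS and 381.26 in WT, a ratio of 1.36 (1.20 to 1.53), and Cdkn2a, the senescence locus that Polycomb holds silent, had 395.90 in CaPS and 345.09 in WT, a ratio of 1.15 (1.00 to 1.31). The 3 below 0 were weak peaks, Cdkn1a, Cdkn1c and Cdkn1b, the last with 2.44 in CaPS and 8.94 in WT. Polycomb genes (14 of 32) had a median of 0.38, and the interval lay below 1 at 2 and above 1 at 6. Past 2-fold 3 were higher and 0 lower, and the 3 were weak peaks, Cbx7, Pcgf1 and Yaf2. Over all genes the interval lay below 1 at 4.62% and above 1 at 8.53%. Past 2-fold 12.1% of all genes were higher and 6.35% lower. Cbx7, the gene engineered in these cells, had a 500-base peak in an intron with 11.79 in CaPS and 3.25 in WT, which is 14.5 tags against 4 tags. Cbx8, which encodes a chromodomain subunit found in differentiated cells, had 430.45 in CaPS and 485.73 in WT, a ratio of 0.886 (0.787 to 0.998). Germ cell genes (5 of 18), fibroblast markers (7 of 14) and housekeeping genes (3 of 16) had few measured members, with medians of 0.10, -0.05 and 0.78. The 3 housekeeping genes had 9.76 to 34.14 in CaPS and 5.28 to 23.98 in WT.

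**Figure D3:**
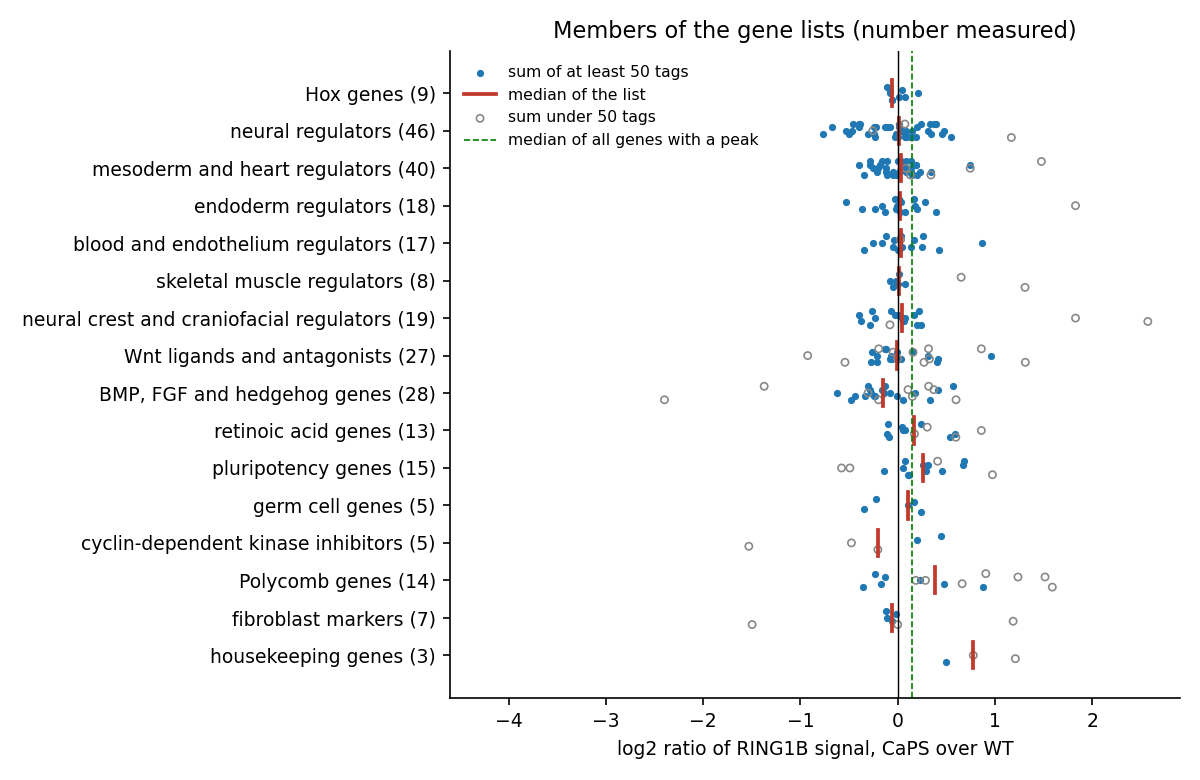
log2 ratio of RING1B signal, CaPS over WT, for each measured member of the 16 gene lists, with filled points for peaks of at least 50 tags, open points for weaker ones, a red bar at each list's median and a dashed green line at the median of all genes, 0.15. Filled points gather around 0 in every lineage list, and the values past 1 in either direction are open points.

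The median ratio was closer to equality at RING1B peaks that ESC also had than at the others, which were mostly weak. Of the 6547 peaks 4553 (69.5%) shared at least 1 base with an ESC peak of RING1B CUT&RUN, and their median log2 ratio was 0.09. The other 1994 had a median log2 ratio of 0.49, with a median signal of 9.35 tags per 10 M in CaPS and 8.13 in WT. Most of these were weak, and a weak peak of the merged list has to be high in at least 1 library. Their median is thus not read as a difference between genotypes. Among peaks of at least 50 tags the medians were 0.05 over 2086 peaks with an ESC peak and 0.36 over 100 peaks without one. Of those 100 peaks 83 were above 0 and 15 below, 8 were higher in CaPS past 2-fold and 0 lower. Over all 2186 peaks of at least 50 tags, 57% were above 0, 1.28% higher past 2-fold and 0.549% lower. The strongest of the 100 peaks without an ESC peak was at Nr2f2, a regulator of veins and interneurons, with 658.07 in CaPS and 673.92 in WT. It was 30.2 kb wide and overlapped an ESC H3K27me3 peak. Why no ESC RING1B peak was listed there was not tested. H3K27me3 in ESC gave a like order. The 2561 peaks over an ESC H3K27me3 peak had a median log2 ratio of 0.04 and the 3986 others 0.27. Among peaks of at least 50 tags these were 0.01 over 1406 peaks and 0.17 over 780 peaks. The groups of both splits differ in strength even above 50 tags. The median in CaPS was 36.99 for peaks with an ESC RING1B peak and 30.5 for those without. For peaks with H3K27me3 it was 43.49 in CaPS, and for those without 30.89. The part of strength in either order was not tested.

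In ESC the same contrast gave lower RING1B signal in CaPS at most of these places. At the 4553 shared peaks the median log2 ratio of CaPS over WT was 0.09 in embryoid bodies and -0.66 in ESC. Past 2-fold, 4.00% of them were lower in CaPS in embryoid bodies, where 21.1% were in ESC. Each stage has 1 library per genotype and the stages come from different experiments, so this difference between stages was not tested. The ESC libraries differ in depth, 11.3 M tags in CaPS and 19.1 M in WT. They also differ in the share of tags in the ESC peaks, 3.01% in CaPS and 4.61% in WT. In embryoid bodies the shares were 2.04% in CaPS and 1.96% in WT. The part of this difference between whole libraries in the ESC ratios was not tested. Among the shared peaks of at least 50 tags, 427 were lower in CaPS past 2-fold in ESC, and of these 201 were below 0 in embryoid bodies, where 897 of all 2086 such peaks were. Across 2078 of those peaks with tags in both tables' libraries the log2 ratios of the stages had a Pearson r of 0.12 and a Spearman rho of 0.13, a description over peaks that share a library. In RING1B ChIP of neural progenitors at day 8, at 2366 of these peaks, the median was 0.34 in experiment 3 and -0.72 in experiment 4. The pairs of libraries there thus lay on opposite sides of 0. The shares of tags in the day-8 peaks differed in the same directions. They were 3.39% in CaPS and 2.57% in WT in experiment 3, and 3.20% in CaPS and 5.10% in WT in experiment 4. Of the 206 list members with at least 50 tags and an ESC peak, 101 were below 0 in embryoid bodies and 202 in ESC, near the shares over all 2086 such peaks, 43% in embryoid bodies and 95.3% in ESC.

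**Figure D4:**
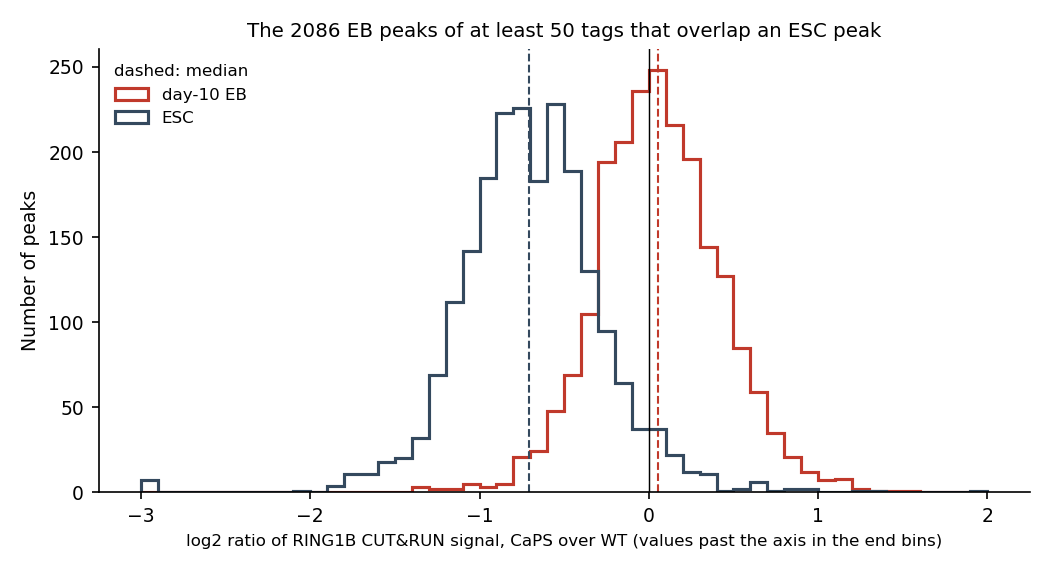
Number of peaks by log2 ratio of RING1B CUT&RUN signal, CaPS over WT, in bins of 0.1, at the 2086 peaks of at least 50 tags in embryoid bodies that overlap an ESC peak. The day-10 embryoid bodies (red) centre at 0.05 and the ESC (dark) at -0.71 (dashed medians).

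Several of the peaks with large ratios lay together on chromosome 6. Peaks of at least 20 tags were put in bins of 15 in their order along each chromosome, and 27 of 321 bins had a median log2 ratio at least 0.25 above that of all and 18 at least 0.25 below. One run of at least 3 neighbouring bins on the same side was found, chr6:67375586-108186059, which was singled out after its values were seen. On chromosome 4, 3 neighbouring bins (62470295 to 107178683) stood 0.248, 0.323 and 0.259 above, the first just short of the mark. The run on chromosome 6 held 77 peaks, of which 67 were above 0, with a median log2 ratio of 0.72. The 266 peaks elsewhere on chromosome 6 had a median of 0.03. The summed signal of the run was 2485.99 tags per 10 M in CaPS and 1633.19 in WT, a ratio of 1.52. Dok1, Rpia, Emx1, Cyp26b1, Wnt7a and Rybp lie in it, as do Tlx2, a neural crest regulator with 117.06 in CaPS and 74.38 in WT, and Gata2, a blood regulator with 203.23 in CaPS and 170.31 in WT. In ESC the median over the ESC peaks of this run was -0.32, where it was -0.66 over all peaks shared with embryoid bodies. In day-8 neural progenitors the median over the run was 0.08 in experiment 3 and -0.79 in experiment 4. Over the shared peaks it was 0.34 in experiment 3 and -0.72 in experiment 4. Just before the run, the 4 peaks between Atoh1 and Ndnf (chr6:64726994-65673837), at Atoh1, Smarcad1, C130060K24Rik and Ndnf, were all lower in CaPS. Their summed signal was 352.41 in CaPS and 652.38 in WT, a ratio of 0.540. This stretch was also chosen after its values were seen. Atoh1, Smarcad1 and Ndnf are among the genes named above as lowest in CaPS, so their lower signal follows from the choice. The same 4 places had ratios of 0.331 to 0.404 in ESC. In day-8 neural progenitors all 4 were higher in CaPS in experiment 3, with log2 ratios of 0.52 at Atoh1, 0.67 at Smarcad1, 1.76 at C130060K24Rik and 0.90 at Ndnf. In experiment 4 Smarcad1 and Ndnf were higher, at 0.96 and 0.73, and Atoh1 and C130060K24Rik lower, at -0.82 and -0.44. The bin just after the run had a median log2 ratio of -0.44, with 2 of 15 peaks above 0. DNA copy number was not measured in these libraries, and its part in these stretches was not tested.

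**Figure D5:**
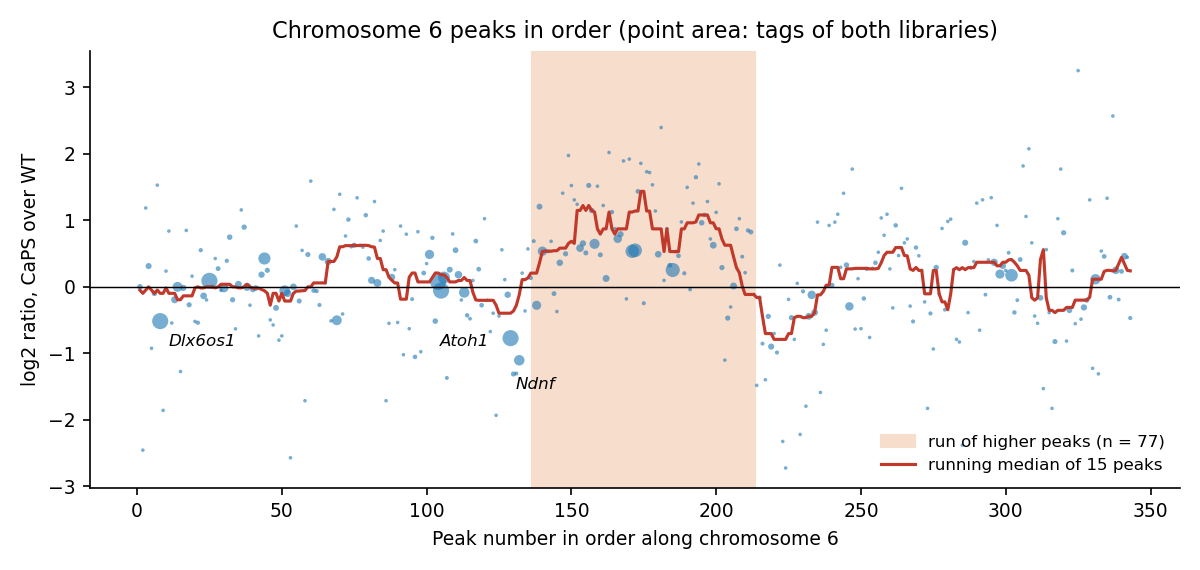
log2 ratio of RING1B signal, CaPS over WT, for the 343 peaks of chromosome 6 in their order along it, with point area following the tags of both libraries up to a limit and a running median of 15 peaks in red. Inside the shaded run of 77 peaks the running median stays above 0 up to its last peaks, while Dlx6os1, Atoh1 and Ndnf lie below 0.

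Stretches that were empty in 1 genotype of ESC held RING1B tags in both genotypes here. On chromosome 1 between 39361790 and 44552793, all 23 ESC peaks were at 0 in CaPS, and the 12 embryoid body peaks had a summed signal of 633.28 in CaPS and 637.74 in WT. On chromosome 5 between 3341502 and 9266723, all 15 ESC peaks were at 0 in CaPS, and the 12 embryoid body peaks had 156.51 in CaPS and 147.14 in WT. On chromosome 12 between 9029059 and 9585741, where Osr1 lies, both ESC peaks were at 0 in WT, and the embryoid body peaks had 348.34 in CaPS and 410.94 in WT. None of these peaks was at 0 in an embryoid body library. Why whole stretches were at 0 in an ESC library was not tested, so they are not read as loss of RING1B.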

How the data were processed

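RING1B was mapped by CUT&RUN in CaPS and WT embryoid bodies, 1 library each. The deposited table gives a signal per peak and library, which per the file headers is tags in the peak scaled by the authors to 10 M tags per library, with peaks merged over libraries on mm10. Peaks were called over IgG per the series design text, and the IgG libraries were not used here. Per the submitters' processing notes, HOMER 4.10.4, Bowtie2 2.3.4.3, cutadapt 1.14 and SAMtools 1.9 were used, with the builds mm10 and dm6. The column names mark the tag directories as normalised, and the labels do not say how. Multiplied by the header totals, 100% of values gave whole read ends, 0.5 tag each, within 0.02 read ends, so the tags behind each value were recovered. No count model was run, because 1 library per genotype leaves no spread between replicates.

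The log2 ratio is log2((CaPS + 1)/(WT + 1)), which understates the change of weak peaks, and the ratio itself is taken without the added 1. The 95% interval of a ratio is exact for whole tags, given the sum of tags of both libraries, and 0.5 tag was rounded up. It was run on simulated counts drawn from the model it assumes. That run checks the calculation and cannot show how the interval holds for CUT&RUN reads. A gene was represented by its strongest annotated peak within 10 kb of its start. Named genes are the 10 strongest peaks, the 10 lowest and 10 highest genes of at least 50 tags by the interval bound nearest to 1, and in each list members with the highest signal or the extreme ratios, with further genes named as chosen after their values were seen or through their place on chromosome 6. Some genes that the rule names are not reported here. Members, lists and alternatives were chosen with earlier results of these data known. ESC RING1B, ESC H3K27me3 and day-8 RING1B tables were used for overlap and side by side values, each within its own scale. For RING1B in ESC, 2 columns of per-sample values match no sample and were left out. The ESC RING1B columns that were used name the genotype but no experiment number. Each was read as the only ESC RING1B CUT&RUN library that the series lists for its genotype. Python 3.11.15, numpy 2.4.6, pandas 2.3.3, scipy 1.17.1 and matplotlib 3.10.9 were used. Alternatives were other scalings, an added value of 0.1 or 10, a minimum of 50 tags, omission of chromosomes and other overlap or gene windows.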

Additional observations from a re-analysis of the deposited data

Results flagged for a closer look

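At the 4553 peaks shared with ESC, the median log2 ratio of CaPS over WT lay above 0 in day-10 embryoid bodies, at 0.087, and below 0 in ESC, at -0.66. The opposite sides of 0 drew attention to this pair. The difference was not tested, since each stage has 1 library per genotype and the stages come from different experiments. In ESC 3.01% of the CaPS tags and 4.61% of the WT tags lay in the peaks. In embryoid bodies 2.04% of the CaPS tags and 1.96% of the WT tags did.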

How the results depend on the processing

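No paired analysis was possible because each genotype has 1 library. Of the results over all peaks, the median log2 ratio stayed above 0 in every setting run, each changed alone. It was 0.10 when the libraries were scaled to the same sum over the peaks and 0.11 with 10 added to both values. Over peaks of at least 50 tags it was 0.061. Equal sums lower the log2 ratios by about 0.061, so the sign over these stronger peaks depends on the scaling. In the strongest of the 10 groups the median was -0.01 without it. The counts past 2-fold depended on weak peaks. With 10 added, 3 peaks were lower and 12 higher, and with at least 50 tags 12 were lower and 28 higher, where fewer peaks were counted. The other settings gave counts within 1.5 times of the reported ones. These were equal sums over the peaks, equal tags outside them, 0.1 added, leaving out chromosomes 6, 8 and 14 and, chosen after seeing the data, leaving out the run on chromosome 6, with 394 to 543 lower and 725 to 1005 higher peaks. For peaks with an ESC RING1B peak the median was 0.030 at equal sums and 0.051 with at least 50 tags, and for those without one 0.36 with at least 50 tags. Among the 16 list medians, scaling to equal sums changed the sign of 6 and the narrower 2 kb gene window of 1. Of the 97 named genes, 26 past 2-fold no longer were with 10 added, and the sign of the log2 ratio changed in 7 at equal sums, none of them past 2-fold. Precision is limited by depth, since the median peak holds about 15 tags per library, and by the lack of replicates.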
